A study of Homo sapiens with 9 samples.

Results

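The HOX cluster genes were taken as every row of the count table whose symbol was HOXA, HOXB, HOXC or HOXD followed by a number only. This rule found 39 genes among 26364 rows: 11 of HOXA, 10 of HOXB, 9 of HOXC and 9 of HOXD. The rows came from polyA RNA-seq of A549, a human lung adenocarcinoma cell line, in 9 libraries. The control group was A549 of wild-type genotype (n = 2). The LA group was A549 cut with Cas9 and the guides sgLOC388942 and sgALK, which joins the intergenic locus LOC388942 to the receptor tyrosine kinase gene ALK (n = 2). The sgFOS group carried the same fusion and a guide against FOS, a subunit of the AP-1 transcription factor (n = 2), and the sgScr group carried the fusion and a scramble guide (n = 3). According to the methods, fusion strains were monoclonal, so the fusion and the clone cannot be told apart in LA against control. The sources used here do not state that the control was cloned, or which fusion clone gave the sgScr and sgFOS cells. No source used here states that replicates came from separate cultures, so p-values measure the spread between these libraries, which may be technical.

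HOX genes encode homeodomain transcription factors that pattern the body axis. They lie in 4 clusters, and the members with the same number in different clusters are paralogs. Low numbers sit at the 3′ end of each cluster and are used in anterior regions, and high numbers sit at the 5′ end and are used in posterior regions. Adult cells, lung epithelium included, keep a part of this code, and tumor lines often carry members outside the range of their tissue. Here paralog groups 1 to 3 are called anterior, 4 to 8 central and 9 to 13 posterior.

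Total counts ranged from 14507228 to 20456341. Replicates of control and LA lay further apart than those of the guide groups: a chi-square over its degrees of freedom, computed for each replicate pair, was 125.4 for control and 58.1 for LA, against 1.74 to 2.65 within sgScr and sgFOS. FOS had 167 and 155 counts in control and 5448 and 1660 in LA. In sgScr FOS had 4198, 4037 and 3528 counts, and in sgFOS it had 1008 and 1113, below every sgScr library. ALK had 0 and 0 counts in control, 2 and 15 in LA, 4, 1 and 3 in sgScr, and 2 and 0 in sgFOS. Of the 5 epithelial markers 4, and of the 5 A549-typical markers all 5, had at least 100 counts in every library. Among the 5 blood cell markers, CD14 had at least 100 counts in every library, and PTPRC and CD3E were at 0 in every library, and 3 of 5 genes high in the other lung line of the study, 2 of 3 endothelial and 2 of 5 fibroblast markers had at most 3 counts in each. The fibroblast marker COL1A1 had at least 100 in every library.

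All 4 clusters were transcribed, and HOXB gave the most RNA. A member was counted as present with at least 10 counts in at least 1 library, and 34 of 39 passed: 10 of 11 in HOXA, 9 of 10 in HOXB, 8 of 9 in HOXC and 7 of 9 in HOXD. The other 5 (HOXA9, HOXB1, HOXC12, HOXD3 and HOXD12) stayed under 10 counts in all 9 libraries. HOXD12 had 0 counts throughout, which allows up to 3 counts in a library, for counting error only. At least 100 counts in every library were found for 8 members, of which 6 were HOXB genes (HOXB3, HOXB6, HOXB7, HOXB8, HOXB9 and HOXB13). HOXA3 and HOXC13 were the other two, and no HOXD gene reached that level.

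Each level below is a CPM, the count scaled to library depth after TMM normalization, which sets libraries so that most genes do not move. Summed over all 39 genes, CPM was 327 and 247 in control, 204 and 202 in LA, 186, 186 and 180 in sgScr, and 171 and 180.1 in sgFOS. Both control libraries lay above every library with the fusion. The LA mean was 0.707 of the control mean (202.7 ± 1.20 against 286.8 ± 56.2, SD, n = 2 each). The size of this gap depended on the scaling. The TMM factors were 0.799 and 0.986 in control and 1.07 in each LA library, and a factor under 1 raises CPM. With library size alone the control mean was 252.3, and the gap was narrower. The sums were not corrected for transcript length. The sums of the A549-typical and epithelial markers were also lower in LA, at 0.683 and 0.564 of their control means, and the part of such a shared difference in the HOX sum was not tested. In bulk RNA, fewer cells that express a gene and less RNA per cell cannot be told apart.

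HOXB carried most of that gap. Its sum was 190.9 and 141.2 CPM in control, 98.0 and 92.6 in LA, 102, 106.5 and 98.1 in sgScr, and 89.7 and 95.0 in sgFOS. The share of HOXB in the HOX sum was highest in control 1, at 58.5%, and lowest in LA 2, at 45.9%. HOXD stayed low and flat, between 10.5 and 12.9 CPM in all 9 libraries. HOXA and HOXC differed more between the LA replicates than between the means of LA and control. HOXA was 58.3 CPM in LA 1 and 31.7 in LA 2, while HOXC was 35.8 in LA 1 and 64.6 in LA 2.

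**Figure D1:**
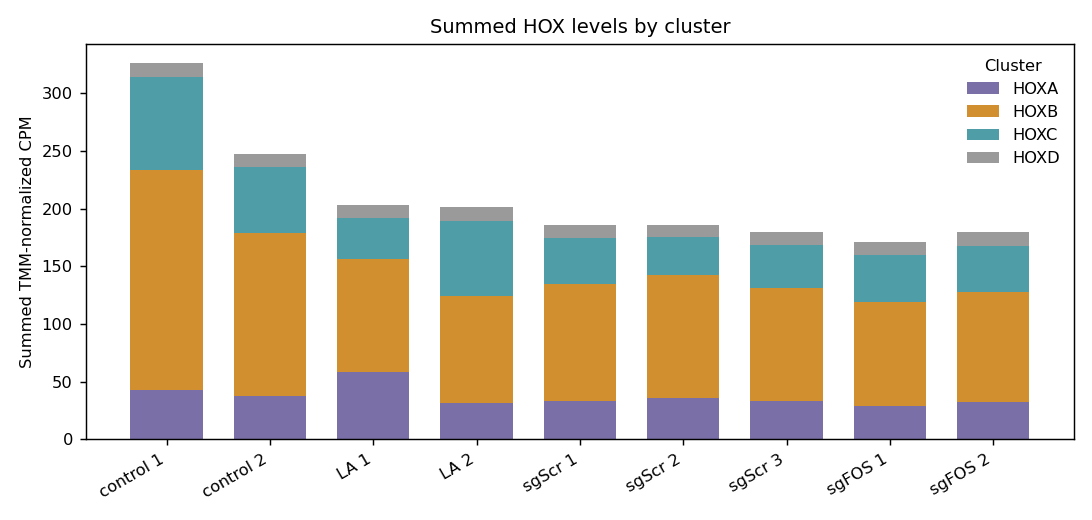
Summed TMM-normalized CPM of the HOX genes (y axis) in each of 9 libraries (x axis), stacked by cluster. The control bars reach 327 and 247 CPM, and the 7 bars with the fusion lie between 171 and 204.

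Divided by transcript length, so that genes can be compared with each other, the highest mean level in each cluster belonged to HOXA3, HOXB7, HOXC13 and HOXD8. HOXB7 ranked first of the 39 in all 4 groups, with a mean of 36.5 CPM per kb in control, 18.2 in LA, 13.5 in sgScr and 12.8 in sgFOS. HOXB8 ranked second in control, sgScr and sgFOS, at 16.7, 9.13 and 7.97 CPM per kb, but seventh in LA, at 4.56. HOXB6 was at 8.37, 8.96, 8.22 and 6.87 CPM per kb in control, LA, sgScr and sgFOS. The highest posterior member was HOXC13, a gene of hair and nail differentiation, at 11.5 CPM per kb in control.

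**Figure D2:**
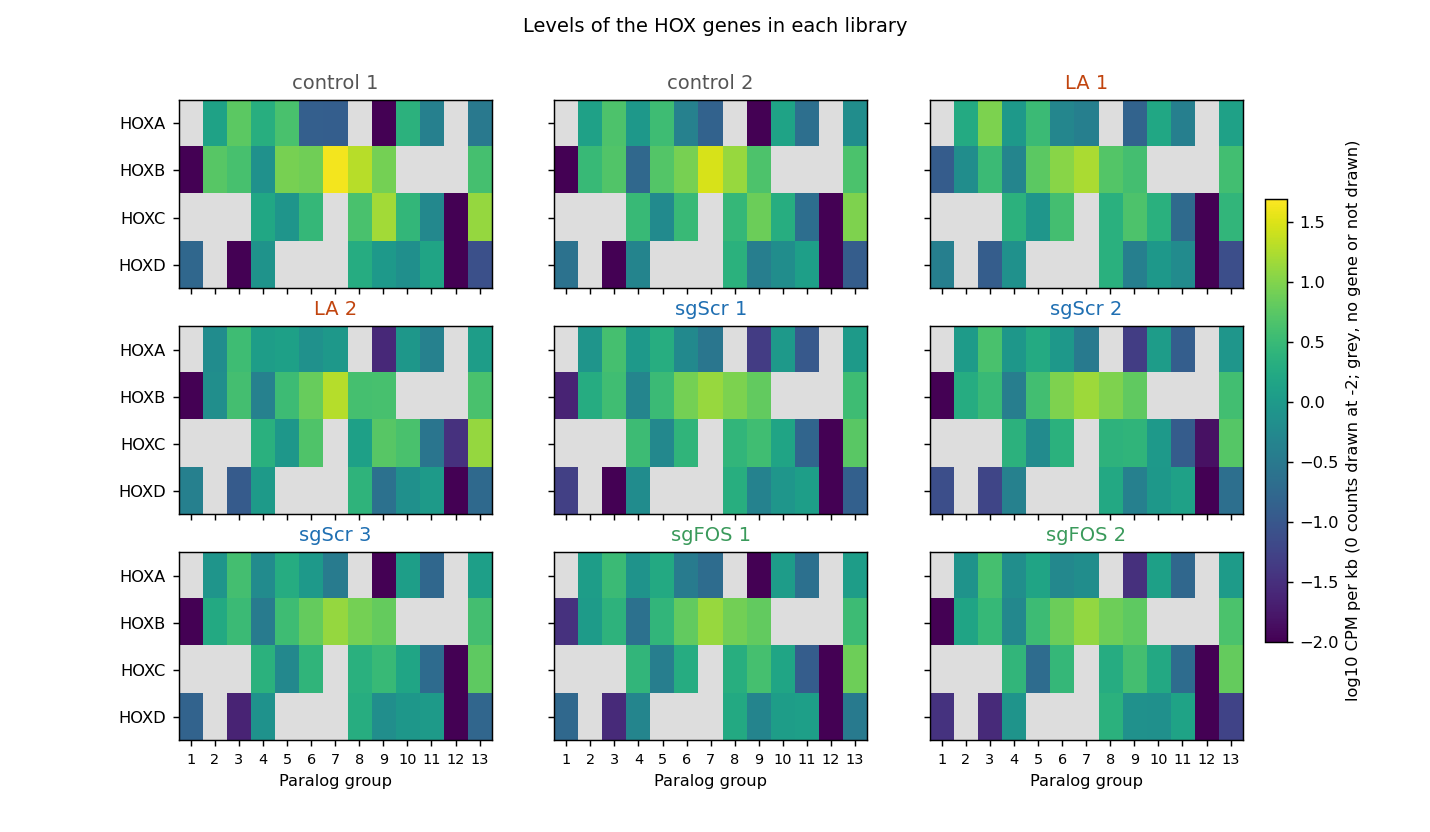
Levels of HOX genes in each library as the log10 of CPM per kb of transcript, with clusters as rows and paralog groups 1 to 13 as columns (grey, no gene or not drawn). HOXB7 is the brightest cell in each of the 9 panels, and HOXD12 is dark in all of them.

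Lung development uses the central and anterior genes, above all HOXA5 and HOXB5, which act in airway branching. HOXA5 had 113 and 102 counts in control, 91 and 38 in LA, 71, 62 and 56 in sgScr and 44 and 36 in sgFOS. HOXB5 had 250 and 159 in control, 177 and 115 in LA, 128, 147 and 114 in sgScr and 75 and 95 in sgFOS. In CPM both control libraries of HOXA5 (7.30 and 6.02) lay above the 7 others (2.12 to 5.59), and HOXB5 overlapped between control and LA.

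Several other HOXA genes were low. HOXA2, which patterns the second branchial arch, had between 19 and 51 counts over the 9 libraries, and HOXA4 between 17 and 55. HOXA6 had 2 to 19 counts, with 39.3% of its exon bases shared with HOXA-AS3 on the other strand. HOXA10, a posterior gene that acts in the uterus and in blood progenitors, had more counts than HOXA2, HOXA4 and HOXA6 in every library. These counts are not divided by transcript length. It had 93 and 60 counts in control, 66 and 42 in LA and 42 to 58 in the guide groups. HOXA9, its neighbour in the cluster, had 0 to 5 counts.

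In HOXB the ends of the cluster were not alike. HOXB1, the most anterior gene, had 0 to 4 counts, while HOXB3 had 121 to 276 and HOXB4, a regulator of blood stem cells, 6 to 23. HOXB13, a posterior gene known from prostate, had 193 and 229 counts in control, 187 and 237 in LA, 225, 239 and 209 in sgScr and 155 and 203 in sgFOS. In CPM HOXB13 stayed between 10.5 and 13.5 in all 9 libraries, the groups overlapping.

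HOXC and HOXD kept several members at low levels. HOXC4 had 42 to 124 counts and HOXC8, a central gene of the trunk, 55 to 164. HOXC5 had 5 to 26 counts, and 67.3% of its exon bases are shared with other transcripts on the same strand. HOXC11 had 6 to 27 counts. In HOXD, HOXD9, HOXD10 and HOXD11, which act in limb growth, had 8 to 29, 19 to 34 and 17 to 46 counts, and HOXD10 and HOXD11 share 18.2% and 21.4% of their exon bases with each other. HOXD4 had 8 to 21 counts and HOXD13, the digit gene at the posterior end, 2 to 12.

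HOXB8 is shown with a regulatory site, because it is the member with the closest match to a microRNA that is encoded inside the HOX clusters. The miR-196 genes lie in the HOXA, HOXB and HOXC clusters and miR-10a lies in HOXB. MicroRNAs pair with messages mainly through bases 2 to 8, the seed, which is in capitals in the mature sequences from RefSeq (GRCh38.p14):
miR-196a-5p: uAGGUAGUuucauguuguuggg
miR-196b-5p: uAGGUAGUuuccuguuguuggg
miR-10a-5p: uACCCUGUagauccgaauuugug
The 2 miR-196 sequences share a seed. Its complement, ACTACCT, occurred in 8 of 39 HOX 3′UTRs (HOXA5, HOXA7, HOXA9, HOXB1, HOXB6, HOXB7, HOXB13 and HOXC8) and in 7.06% of 18634 human 3′UTRs. The complement of the miR-10a seed, ACAGGGT, occurred in 3 of 39 (HOXA3 and HOXB3 among them) and in 12.8% of all.

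HOXB8 lacks that perfect seed complement, but its 3′UTR holds a site that differs from the full 22-base complement of miR-196a at 1 base, a G:U wobble given here as a capital (hg19, chr17:46690132-46690153, minus strand, in the 3′UTR of the last exon):
HOXB8 site: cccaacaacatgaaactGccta
The next closest HOX 3′UTR stretch, in HOXA7, differed at 7 bases. Mature microRNAs were not measured in these libraries: the row of the MIR196A1 gene held 2 to 10 counts per library and that of MIR10A 0 or 1. A match of letters is a description only, and its part in the HOXB8 level was not tested.

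LA was set against control to ask what the fusion changes in A549. Of the 39 members 32 passed the filter on low counts. HOXB2 and HOXB8 were lower in LA, and no member was called higher. The test was the quasi-likelihood test of edgeR with Benjamini-Hochberg adjustment over all 14425 genes tested, and a gene was called at an adjusted p under 0.05. Across those genes 9.94% were called lower and 9.57% higher, so 2 of 32 lower (6.25%) and 0 of 32 higher are no more than the background. At an unadjusted p under 0.05 there were 6 members (18.8%), against 34.5% of all genes. DESeq2 called 0 higher and 3 lower (HOXB2, HOXB8 and HOXB7), against 11.1% and 12.7% of all genes.

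HOXB2, an anterior gene of hindbrain patterning at chr17:46618256-46622471 (hg19, minus strand), had 141 and 90 counts in control and 18 and 20 in LA. In sgScr it had 70, 68 and 51 counts and in sgFOS 27 and 37. Every LA library lay below every library of the other 3 groups, and every sgScr library lay between LA and control. On the log2 scale LA was lower than control by −2.71 ± 0.62 (SE), with an adjusted p of 0.00485 by edgeR.

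HOXB8, a central gene at chr17:46688739-46692654 (hg19, minus strand) that is known for blocking myeloid differentiation when forced on, had 670 and 496 counts in control and 181 and 156 in LA. Its counts in sgScr were 421, 432 and 324, and in sgFOS 265 and 251. As for HOXB2, the LA libraries were the lowest of the 9 in CPM (11.1 and 8.71 against 16.7 to 43.3), and control the highest. The log2 fold change in LA was −1.89 ± 0.44 (SE), with an adjusted p of 0.00524 by edgeR. No other annotated gene overlaps its exons, and HOXB-AS1 overlaps 3.5% of those of HOXB2 on the other strand.

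Both calls rested on both LA libraries. With 1 of them left out, 0.63% or 0.46% of all genes were called lower. Without LA replicate 1 the edgeR adjusted p was 0.0782 for HOXB2 and 0.107 for HOXB8, and without LA replicate 2 it was 0.0985 and 0.232, with log2 fold changes of −2.69 or lower for HOXB2 and −1.70 or lower for HOXB8. Without control replicate 1 HOXB2 had an adjusted p of 0.0533 and HOXB8 one of 0.0222. In this comparison the fold change of a gene rose with its transcript length (Spearman rho 0.585 over genes, which are not independent replicates). With length and GC corrected for, the fold changes on the log2 scale were −2.04 (adjusted p 0.0257) and −1.44 (adjusted p 0.0194).

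Most other HOXB members had negative values without being called. HOXB7, another central gene, had 916 and 683 counts in control and 372 and 477 in LA. Control and LA did not overlap, but its log2 fold change of −1.03 ± 0.42 had an adjusted p of 0.0828 by edgeR. It was called by DESeq2 (adjusted p 0.0419), in the fit of all 9 libraries (0.0047) and without control replicate 2 (0.0092), and with the length and GC correction it was −0.32. Of the 9 HOXB members tested 8 had a negative log2 fold change, with a median of −0.58, against 48.3% negative and a median of 0.044 over all genes. With the correction the HOXB median was −0.32. The medians of the other clusters were 0.28 for HOXA, −0.31 for HOXC and 0.21 for HOXD, and with the correction 0.37, 0.073 and 0.48, so that the HOXC sign turned. Over all tested HOX genes the median was −0.11 and with the correction 0.26.

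**Figure D3:**
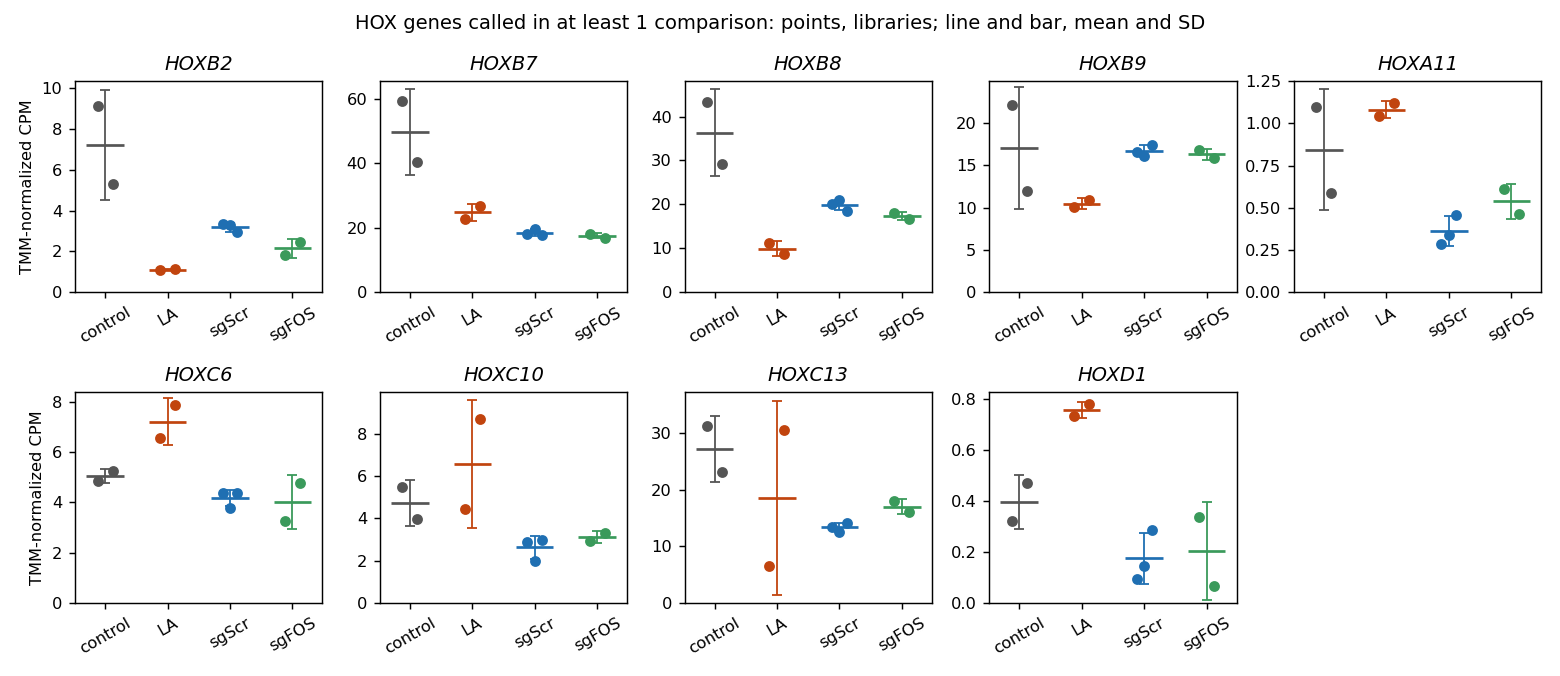
TMM-normalized CPM (y axis) of 9 HOX genes called in at least 1 of 3 comparisons, by group (x axis). Points are libraries and the line with its bar is the mean and SD (n = 2, or 3 for sgScr); the LA libraries of HOXB2 and HOXB8 lie below all others, and those of HOXC13 lie far apart.

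The leading genes of the other clusters were not called in LA. HOXC13 had 483 and 391 counts in control, but 105 in LA 1 and 547 in LA 2. In CPM these were 6.45 and 30.6 in LA against 31.2 and 23.1 in control (log2 fold change −0.58 ± 0.52, adjusted p 0.45 by edgeR). Without LA replicate 1 its log2 fold change was 0.12. The antisense transcript HOXC13-AS varied in the same libraries, with 19 and 21 counts in control, 1 in LA 1 and 28 in LA 2. HOXC13-AS overlaps 7.30% of the HOXC13 exon bases on the other strand, and the sources used here do not say whether counting used the strand. HOXA3 had 273 and 235 counts in control and 456 and 192 in LA (0.28 ± 0.48, adjusted p 0.716), and HOXD8 had 78 and 102 against 96 and 120 (0.16 ± 0.52, adjusted p 0.862).

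Under the threshold of the study methods, an absolute log2 fold change over 0.5 with an unadjusted p under 0.05, 4 members were lower (HOXB2, HOXB7, HOXB8 and HOXC9) and 2 were higher (HOXA7 and HOXA13). These names were chosen after their values were seen. The background by this threshold was 17.1% lower and 17.4% higher, and the members were at 12.5% and 6.25%. HOXA13, the most posterior HOXA gene, had 24 and 56 counts in control and 108 and 102 in LA, and stayed between 82 and 110 in all 7 libraries with the fusion. HOXA7 had 4 and 5 counts in control and 13 and 34 in LA, and 62.5% of its exon bases are shared with HOXA-AS3 on the other strand. HOXC9 had 356 and 185 counts in control and 110 and 144 in LA, and between 79 and 115 in sgScr and sgFOS.

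sgFOS was set against sgScr to ask what the FOS guide changes in fusion cells. Of the 39 members 31 were tested, and 1 was called in each direction, with HOXC13 higher in sgFOS. The background over 14196 genes was 12.2% called higher and 10.5% called lower, above the 3.23% of members in each direction. Replicates were close here, so small differences pass the test.

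HOXC13 had 280, 257 and 246 counts in sgScr and 264 and 241 in sgFOS, in smaller libraries. In CPM this was 13.3, 12.5 and 14.1 against 17.9 and 16.0, and the groups did not overlap. The log2 fold change was 0.36 ± 0.10 with an adjusted p of 0.00941 by edgeR. Without sgScr replicate 2 the adjusted p was 0.0555, and without sgFOS replicate 1 it was 0.184. DESeq2 called no member in either direction, with an adjusted p of 0.0608 for HOXC13, where it called 7.59% of all genes higher and 6.19% lower. A fit of all 9 libraries called 0 of 14849 genes in this comparison, so it says nothing about the members.

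The signs split by position, and also by cluster. Of 9 HOXB members tested 8 were negative in sgFOS, with a median of −0.20, and 5 of 5 HOXD members were positive, with a median of 0.12. The central genes HOXD4 and HOXD8 were among the positive ones. Position and cluster overlap in these members and were not separated. Of 11 posterior members tested 10 had a positive log2 fold change in sgFOS, with a median of 0.13. Of 15 central members 12 were negative, with a median of −0.20, and of 5 anterior members 4 were negative, with a median of −0.32. Over all genes the median was −0.0015 and 50.2% were negative. The differences are small, the members share libraries, and the splits were noticed in these data and not tested. With the length and GC correction the medians were 0.085, −0.24 and −0.38, with the same counts of signs. Without sgFOS replicate 2 there were 10 of 13 posterior members positive and 15 of 15 central members negative, and without sgFOS replicate 1 there were 9 of 12 positive and 10 of 15 negative. The central median was −0.093 without sgScr replicate 1 and −0.12 without sgScr replicate 2, and in the latter fit 8 of 11 posterior members were positive.

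**Figure D4:**
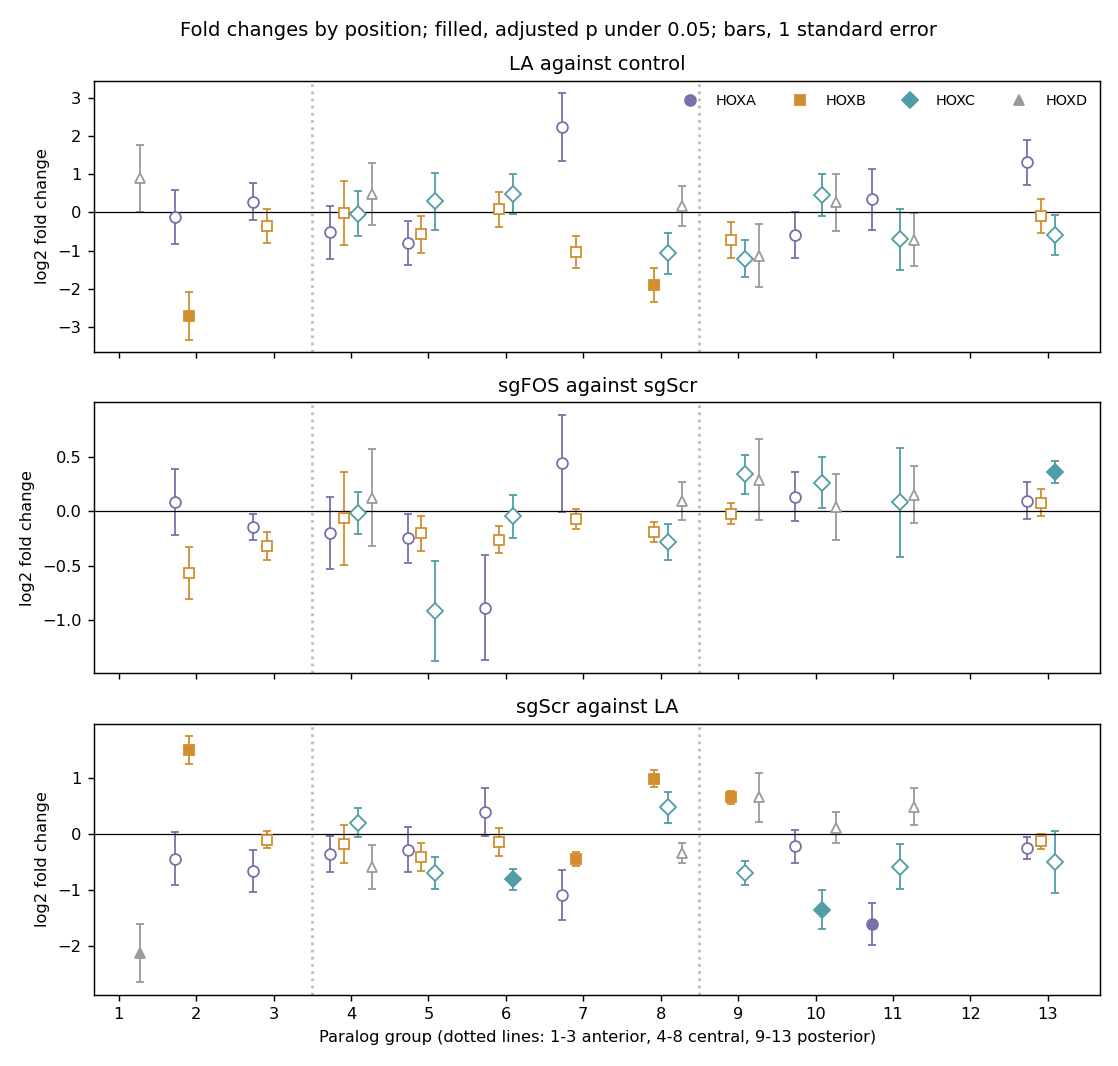
Log2 fold change (y axis) with 1 SE against paralog group (x axis) for tested HOX genes in 3 comparisons, with clusters as symbols and calls filled. In the middle panel 10 of 11 posterior members lie above 0 and 12 of 15 central members below it.

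HOXB2 and HOXB8 had values below those of sgScr in sgFOS, in the counts given above, and were not called. By the threshold of the study methods 2 members were lower, HOXB2 among them, and 0 were higher, where 2.03% and 3.73% of all genes passed. The leading genes HOXA3, HOXB7 and HOXD8 were not called either. HOXA3 had 257, 269 and 207 counts in sgScr and 148 and 185 in sgFOS, with a log2 fold change of −0.15 ± 0.12 (adjusted p 0.411 by edgeR). HOXB7 was at 18.1, 19.6 and 17.7 CPM in sgScr and 18.1 and 16.9 in sgFOS.

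sgScr was set against LA, fusion cells with and without a scramble guide, to see how far HOX levels lay apart between libraries of the same fusion. The clone behind sgScr is not stated, so the guide, the clone and the preparation of the libraries cannot be told apart here. This comparison shares the LA libraries with LA against control, so a member that was low in LA tends to differ in both. Of 33 members tested 3 were higher in sgScr (HOXB2, HOXB8 and HOXB9) and 5 were lower (HOXA11, HOXB7, HOXC6, HOXC10 and HOXD1). These are 9.09% and 15.2% of the members, against 10.6% and 12.3% of 14521 genes, so the counts are near the background. By the threshold of the study methods 3 were higher and 5 lower, against 10.7% and 15.2% of all genes.

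The 3 genes that were higher all belong to HOXB. HOXB8 differed by 0.98 ± 0.15 on the log2 scale (adjusted p 0.0102) and HOXB2 by 1.50 ± 0.25 (adjusted p 0.0128), both by edgeR, with the counts given above. HOXB9, a posterior gene, had 163 and 195 counts in LA and 347, 331 and 303 in sgScr, without overlap in CPM (10.0 and 10.9 against 16.1 to 17.4). Its log2 fold change was 0.65 ± 0.12 with an adjusted p of 0.0181 by edgeR. HOXB9 in control was at 22.1 and 11.9 CPM, on both sides of sgScr. HOXB7 moved the other way, from 22.8 and 26.6 CPM in LA to between 17.7 and 19.6 in sgScr (−0.44 ± 0.12, adjusted p 0.0472 by edgeR), so neighbours in the cluster did not share a direction.

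The other 4 genes that were lower were spread over HOXA, HOXC and HOXD. HOXC6, a central gene, had 107 and 141 counts in LA and 92, 78 and 76 in sgScr (log2 fold change −0.81 ± 0.18, adjusted p 0.0286 by edgeR). HOXC10, a posterior gene of hindlimb patterning, had 72 and 156 in LA and 61, 41 and 52 in sgScr (−1.35 ± 0.35, adjusted p 0.0407). In CPM the LA and sgScr libraries of both genes did not overlap, but the LA libraries of HOXC10 were at 4.42 and 8.71. HOXA11, which acts in limb and uterus development, had 17 and 20 counts in LA and 6, 7 and 8 in sgScr (−1.60 ± 0.37, adjusted p 0.0306). HOXD1, an anterior gene, had 12 and 14 in LA and 2, 3 and 5 in sgScr (−2.13 ± 0.52, adjusted p 0.0338). Both rest on few reads. HAGLR and a second transcript share 60.1% of the HOXD1 exon bases on the other strand, HOXA11-AS shares 27.2% of those of HOXA11, and HOXC6 shares 16.1% of its exon bases with HOXC4, HOXC9 and another transcript on its own strand.

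The 8 calls between sgScr and LA needed all 3 sgScr libraries. With any 1 of them left out 0 members were called higher and 0 lower by edgeR, where 1.18% to 1.55% of all genes were called higher and 1.51% to 2.16% lower. In those fits the adjusted p of HOXB8 was then between 0.0641 and 0.071 at a log2 fold change of 0.94 to 1.03. HOXC13 went with the LA library that was kept. Its log2 fold change in sgScr against LA was −0.50 ± 0.56 (adjusted p 0.54 by edgeR) with both, 1.02 without LA replicate 2 and −1.21 without LA replicate 1. HOXA3 was −0.66 ± 0.37 (adjusted p 0.234) with both and 0.21 without LA replicate 1.

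Of the called members the RefSeq promoter table held HOXA11 and HOXD1, and their windows are printed because both genes were called lower in sgScr. It held windows for 20 of the 39 members, 27 in all, each from 250 bases before to 50 after a start. The searched motifs, on both strands, were the AP-1 site (TGANTCA), the E-box of MYC-type factors (CACGTG), the CCAAT box and the TATA box (TATAAA), which do not overlap as written. In the windows from GRCh38.p14, capitals mark a motif that was found:
HOXA11 promoter (chr7:27185183-27185482, minus strand): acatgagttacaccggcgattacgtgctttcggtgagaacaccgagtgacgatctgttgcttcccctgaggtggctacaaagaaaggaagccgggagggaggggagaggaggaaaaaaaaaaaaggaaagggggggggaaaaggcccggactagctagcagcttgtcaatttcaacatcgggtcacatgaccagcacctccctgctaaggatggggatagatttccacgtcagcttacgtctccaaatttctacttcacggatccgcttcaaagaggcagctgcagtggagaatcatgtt
HOXD1 promoter (chr2:176188418-176188717, plus strand): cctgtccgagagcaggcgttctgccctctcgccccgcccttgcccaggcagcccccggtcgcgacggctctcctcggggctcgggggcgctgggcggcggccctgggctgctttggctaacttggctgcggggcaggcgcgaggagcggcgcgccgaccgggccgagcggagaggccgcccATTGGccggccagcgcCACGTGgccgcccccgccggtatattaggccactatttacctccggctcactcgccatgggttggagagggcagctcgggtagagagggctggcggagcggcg
The HOXA11 window held none of the 4 motifs, and the HOXD1 window held CCAAT, read on the other strand, and CACGTG. Its GC content was 74.3% against 51.3% for HOXA11.

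Over the 27 HOX windows CACGTG was found in 9 (33.3%), against 7.26% of 35116 human windows. CCAAT was found in 18 (66.7% against 34.6%) and TATAAA in 5 (18.5% against 11.5%). TGANTCA was in 0 of 27, against 7.71% of all, which says only that these letters are not in these windows. Neighbouring HOX windows share their history and several belong to the same gene, so the shares are a description.

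The noncoding transcripts of the clusters had low levels and no calls. Of 27 listed names 18 were rows of the table, and 11 were tested in LA against control, 9 in sgFOS against sgScr and 11 in sgScr against LA, with 0 called by edgeR in each. With the length and GC correction 1 was called higher in LA. HOTAIRM1, at the anterior end of HOXA, had 229 and 135 counts in control, 99 and 55 in LA, 68, 72 and 59 in sgScr and 62 and 54 in sgFOS. HOXB-AS3 had 88 and 41 counts in control, 147 and 113 in LA, 240, 223 and 150 in sgScr, and 116 and 138 in sgFOS. HOXD-AS2 had 49 and 51 in control and between 4 and 23 in the 7 fusion libraries.

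Of the genes that flank the clusters, 3 of 21 tested were lower in LA than in control and 0 higher, against 9.94% and 9.57% of all genes. These were ATP5G2 and ATP5G3, subunits of the mitochondrial ATP synthase, at −2.10 and −1.30 on the log2 scale, and HNRNPA1, an RNA-binding protein, at −1.46 (edgeR adjusted p 0.00262, 0.0262 and 0.0193). With the length and GC correction ATP5G2 was at −0.83, ATP5G3 at −1.37 and HNRNPA1 at −1.92 (edgeR adjusted p 0.049, 0.0221 and 0.0178). None of the 3 lies beside HOXB. After that correction 4 genes of the list were called lower and 0 higher, against 5.41% and 5.17% of all genes. In sgFOS against sgScr 1 was higher and 6 of 21 were lower (background 12.2% and 10.5%), led by CBX5, the heterochromatin protein HP1 alpha, at −0.29. In sgScr against LA 8 of 21 were higher and 1 lower (background 10.6% and 12.3%), led by ATP5G3 at 0.74, NFE2L1 at 0.73 and ATP5G2 at 0.72.

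The regulators of HOX genes were followed in 4 lists. The shares of all genes called higher and lower were 9.57% and 9.94% in LA against control. They were 12.2% and 10.5% in sgFOS against sgScr, and 10.6% and 12.3% in sgScr against LA. With the length and GC correction they were 5.17% and 5.41% in LA against control, and 17.6% and 12.5% in sgScr against LA. The TALE list, of which the PBX and MEIS members bind DNA together with HOX proteins, had 0 of 10 called in LA against control. In sgFOS it had 2 lower, TGIF1 at −0.15 among them, and in sgScr against LA 1 higher, PBX2 at 0.67. Most genes of the Polycomb list keep HOX clusters silent, but it also holds the demethylases KDM6A and KDM6B, which counter this. Of its 32 genes 2 were higher in LA, PHC1 at 1.35 and PHC3 at 1.29. After the length and GC correction 0 were higher and 1 was lower. In sgFOS 2 were higher, KDM6B among them, and 6 lower, led by PCGF5 at −0.51 and CBX7 at −0.43. In sgScr against LA 3 were higher, led by CBX2 at 1.08.

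Most genes of the Trithorax and MLL list keep HOX clusters active, but it also holds the demethylases KDM5A and KDM5B. In LA 9 of 21 were called higher and 1 lower, against 9.57% and 9.94% of all genes. Those higher were led by AFF1 at 2.34, AFF4 at 2.12 and ASH1L at 2.05 on the log2 scale, and KDM5A was among them. These are long transcripts: the list median was 0.96 and became 0.030 with the length and GC correction, with 3 then called higher and 0 lower. In sgFOS 4 were lower and 0 higher, led by MLLT10 at −0.30, and in sgScr against LA 3 were lower and 0 higher, led by AFF1 at −0.39. That direction turned with the length and GC correction, to 5 higher and 1 lower, and AFF1 was then not called (adjusted p 0.0984). In the retinoic acid list, a pathway that switches on 3′ HOX genes, LA had 1 of 15 higher, RDH10, which makes retinaldehyde, at 1.36, and 1 lower, DHRS3, which reduces it, at −1.37. With the length and GC correction RDH10 was at 1.06 and not called (adjusted p 0.0744). In sgFOS 3 were higher and 1 lower, led by STRA6 and ALDH1A3 at 0.55 and 0.54, and in sgScr against LA 3 were higher and 5 lower, led by RDH10 at −1.56, CRABP2 at −1.24 and RARB at −1.06. Whether these moved the HOX genes was not tested.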

How the data were processed

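RNA-seq of 9 libraries was aligned by the authors with STAR 2.7.10b to hg19, per the labels, which also list DESeq2 1.26.0. The counting program, gene annotation and strand setting are not given in the sources used here. The deposited table holds raw counts per gene symbol, with replicates in separate columns and no column left unused (0 of them).

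Counts were analysed with edgeR 4.0.16 in R 4.3.3: filterByExpr, TMM factors and the two-sided quasi-likelihood test, fitted on all genes of the 2 groups compared, with Benjamini-Hochberg adjustment and calls at 0.05. DESeq2 1.42.0, other scalings and filters, a fit of all libraries, a replicate block, a length and GC loess offset (span 0.5) and leaving out each library were alternatives. Levels are TMM CPM over 9 libraries, divided where stated by the canonical transcript length of GENCODE v44lift37, which is on the files' build. Depth limits members under about 10 counts, where 1 read moves the value strongly.

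Members with at least 10 counts in a library are named with levels. Fold changes are given for called members and for the leading gene of each cluster, and for the 3 called genes with the largest change of each list. Values of some genes are not reported here. The members and lists were chosen with earlier results of these data known.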

Additional observations from a re-analysis of the deposited data

How the results depend on the processing

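Counts of called HOX genes changed with the settings. In LA against control, 0 higher and 2 lower became 0 and 3 with DESeq2, 2 and 5 in a fit of all 9 libraries and 2 and 4 under the threshold of the study methods. The fit of all 9 libraries called 23.9% of all genes higher and 21.9% lower, against 9.57% and 9.94% in the main fit. Every fit without 1 library left a group with 1 library, so no count of calls is given here for those fits. In sgFOS against sgScr, 1 higher became 0 with DESeq2, the study threshold or all 9 libraries, a fit that called 0 of 14849 genes here. Without 1 sgScr library the higher count was 0 to 1, against 9.74% to 13.1% of all genes. The 1 lower became 0 with DESeq2 or all 9 libraries, and 2 with no filter, the replicate block or the study threshold. Of all genes 8.01% were called lower with no filter and 10.4% with the block. The lower count became 4 with the length and GC correction, where 10.5% of all genes were called lower. Without 1 sgScr library it was 0 to 2, against 7.51% to 11.9% of all genes. In sgScr against LA, 3 higher became 1 with the replicate block and ranged from 0 to 4 without 1 library. The 5 lower became 3 with DESeq2 or a mean of at least 50 counts, 2 with no filter, 1 with all 9 libraries and 0 with the block, and ranged from 0 to 11. The cause was not tested.

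The main fits did not pair same-numbered replicates, and the sample titles do not say whether they belong together. Their correlations of deviations were −0.216 in LA against control, −0.119 and 0.0090 in sgFOS against sgScr, and −0.034 and −0.0098 in sgScr against LA. With so few libraries these values cannot decide whether replicates were paired. With the block the HOX calls in LA against control stayed at 0 higher and 2 lower, against 5.48% and 5.05% of all genes.

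Among the called members and the leading gene of each cluster, signs turned for 6 fold changes, none of them called in the main fit. Other members that were not called also turned sign without 1 library. In LA against control HOXA3 ranged from −0.61 to 0.84 and HOXC13 from −2.06 to 0.12 without 1 library, the turned signs being without LA replicate 1, and HOXD8 from −0.0074, without control replicate 1, to 0.23. In sgFOS against sgScr HOXD8 ranged from −0.13, without sgFOS replicate 2, to 0.28. In sgScr against LA HOXA3 ranged from −1.19 to 0.21, the latter without LA replicate 1, and HOXC13 from −1.21 to 1.02, the latter without LA replicate 2. Library size alone, without TMM, moved the median log2 fold change of all genes in LA against control from 0.044 to 0.328, and the calls over all genes from 1380 higher and 1434 lower to 1601 and 682; HOXB2 and HOXB8 were still called lower.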
